A study of Rattus norvegicus with 24 samples.

Results

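Cardiac fibroblasts taken from rats aged 10-13 weeks were set against cardiac fibroblasts taken from rats aged 0-3 days, both kept in normal glucose. The comparison used 3 RNA sequencing libraries of each age, 6 of the 24 libraries in the series. The libraries were taken by their age and glucose labels. Both groups compared were primary cells grown in DMEM with 10% fetal bovine serum, plated in six-well plates and then held for 24 hours in DMEM with 5.5 mM glucose. The remaining libraries came from rats of 3-4 weeks and 20 months in the same glucose, and from all 4 ages in 33 mM glucose. The labels give no strain, genotype, sex or passage number, and they do not say whether the 3 libraries of an age came from separate animals or separate cultures. The p-values therefore rest on the spread between libraries with the same age and glucose labels, which may be technical. That spread was estimated over all 24 libraries of the series, not from the 6 compared alone.

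Fibroblasts build and renew the collagen network of the heart. In the newborn heart they lay down a thin, growing matrix while muscle cells still divide, and insulin-like growth factors of fetal type are common in growing tissue. In the weeks after birth the matrix thickens, the heart takes on its adult load and fetal growth programmes are shut down. Cells kept on plastic in serum also take on contractile and dividing traits of their own, so levels here are those of cultured cells.

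The 6 libraries held between 19005882 and 20989302 gene counts, and replicate libraries correlated at r of 0.985 to 0.991 on the log2 scale. A count was found for 15885 to 15935 genes per library at 0-3 days and for 15329 to 15356 at 10-13 weeks. Mitochondrially encoded transcripts took 3.02 to 3.2% of counts at 0-3 days and 3.14 to 3.6% at 10-13 weeks. The first principal component of the 6 libraries held 78.4% of the variance and separated the ages, and the next, with 7.69%, set 10-13 weeks library 3 apart from the other two of its age. Levels are in CPM, the counts of a gene brought to a common library total with edgeR's TMM factors, and are given for libraries 1, 2 and 3 of each age in turn. The 0-3 days libraries are also called newborn and the 10-13 weeks libraries older. Each change is log2 of 10-13 weeks over 0-3 days with its standard error (SE), n = 3 against 3, and each adjusted p is a Benjamini-Hochberg value from edgeR's quasi-likelihood test over all genes tested. A gene is said to have risen or fallen where that value was under 0.05.

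Of 13806 genes tested, 3278 changed between the 2 ages in normal glucose, which is 23.7% of them. At 10-13 weeks 1569 genes were higher (11.4%) and 1709 were lower (12.4%). Among genes that moved over 2 fold the balance was uneven, with 342 higher and 1036 lower. The split depended on the scaling: with plain library totals 939 genes were higher and 2674 lower, and the median log2 change of all genes moved from -0.004 to -0.122. The 2 ages did not overlap in CPM for 5978 genes, 43.3% of those tested. List counts below are to be read against these shares of all genes: 11.4% higher, 12.4% lower and 43.3% without overlap.

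The identity of the cells was checked with marker genes of the cell types a heart digest can hold. Of 13 fibroblast markers tested 7 rose and 0 fell, and their summed level was 33210 to 36100 CPM at 0-3 days and 50010 to 54260 CPM at 10-13 weeks. Most of that sum came from the collagen genes Col1a1 and Col3a1, so its rise is not separate from the collagen result below. With TMM factors Col1a1 and Col3a1 averaged 19380 and 6050 CPM at 0-3 days and 29750 and 15670 CPM at 10-13 weeks. Thy1, a surface protein of many fibroblasts, was at 68.5, 61.7 and 67.9 CPM in the newborn libraries and at 359.2, 324.6 and 314 CPM in the older ones. Every 10-13 weeks library was far above every 0-3 days library, a log2 change of 2.33 (SE 0.14, adjusted p = 1.7e-10). Decorin, the small leucine-rich proteoglycan encoded by Dcn, had a log2 value of -1.07 and did not pass the test. Col1a2, which encodes the second chain of type I collagen, is listed at 0 in all 6 libraries, so that chain was not measured. Markers of other cells moved as well: 26 of 27 cardiomyocyte markers fell and 21 of 23 macrophage and leukocyte markers fell. Fewer markers moved for endothelium (1 of 12 rose, 5 fell), smooth muscle and pericytes (1 of 12 rose, 5 fell), epicardium (1 of 11 rose, 3 fell), Schwann and neural cells (2 of 10 rose, 3 fell) and adipocytes (1 of 5 rose, 1 fell). All 3 lymphocyte markers tested fell, though only 1 did without 10-13 weeks library 2, and no erythroid marker was high enough to be tested. Of 5 Y-linked gene entries 0 rose and 0 fell. Thy1 and Dcn were picked for mention after their values were seen. In libraries made from whole cultures, fewer cells of a type and less RNA per cell cannot be told apart.

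**Figure D1:**
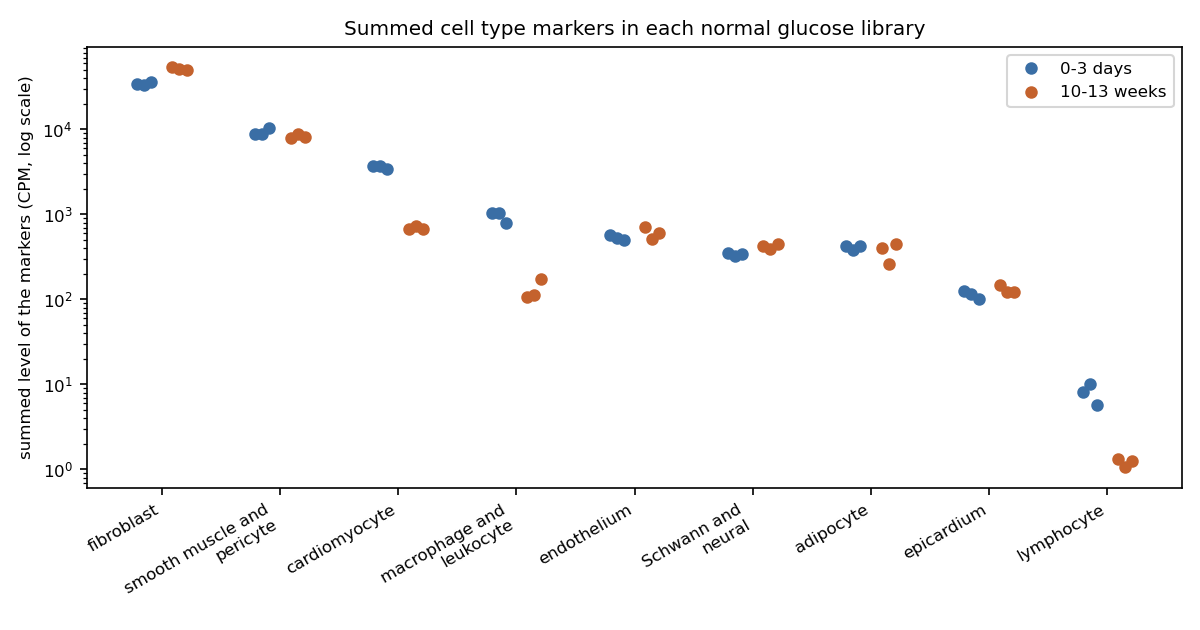
Summed level of the marker genes of 9 cell types in each normal glucose library, with 0-3 days in blue and 10-13 weeks in orange. The log axis gives CPM of the plain library total, without TMM factors. Each dot is 1 library. Most of the fibroblast sum comes from Col1a1 and Col3a1. The cardiomyocyte sum lies at 3441 to 3700 CPM in the newborn libraries and at 665.5 to 729 CPM in the older ones, and the macrophage sum at 799.1 to 1052 CPM and 107.3 to 173.1 CPM.

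Collagen genes rose more often than they fell at 10-13 weeks. Of 20 tested 11 rose and 2 fell, with a median log2 change of 0.52 against -0.004 for all genes tested. Col3a1 (chr9:52023295-52059217, Rnor_6.0), which encodes the type III collagen of compliant tissue, was at 6258, 5436 and 6456 CPM in the newborn libraries and at 15450, 14160 and 17390 CPM in the older ones. The ages were well apart, with a log2 change of 1.37 (SE 0.13, adjusted p = 2.23e-07). Col1a1 (chr10:82745801-82762789), the main chain of type I collagen, was at 18290, 19030 and 20810 CPM and then at 31830, 31070 and 26370 CPM. Its rise was smaller, 0.62 (SE 0.09, adjusted p = 3.2e-05), and again no library of one age reached the other.

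The 3 main chains of type VI collagen, a beaded-filament collagen around cells, rose together but by unequal amounts. Col6a3 (chr9:97926787-98004546) was at 319.4, 348.2 and 588 CPM in the newborn libraries and at 3604, 2418 and 2279 CPM in the older ones, a log2 change of 2.72 (SE 0.32, adjusted p = 3.95e-06). The lowest older library stood well above the highest newborn one. Col6a1 and Col6a2 rose by 1.13 and 1.32. The 2 chains of the short-chain type VIII collagen also rose, Col8a1 by 1.6 and Col8a2 by 3.02 (SE 0.25, adjusted p = 8.41e-08). Col8a2 was at 24.5, 27.2 and 29 CPM in the newborn libraries and at 193.6, 258.8 and 200.2 CPM in the older ones. Col18a1, a basement membrane collagen, fell by 1.23 (adjusted p = 0.00188). Col27a1 fell by 0.87 (adjusted p = 0.0383), a call lost when any one of 5 libraries was left out, which brings the lower count to 1. At the other ages Col3a1 averaged 14180 ± 924 CPM (SD, n = 3) at 3-4 weeks and 8783 ± 317 CPM at 20 months, and Col6a3 averaged 1812 ± 192 CPM and 724 ± 248.7 CPM.

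Many genes whose products process collagen rose. Of 27 genes of collagen modification and crosslinking 14 rose and 3 fell (median 0.34). The lysyl hydroxylases Plod1 and Plod3 rose by 0.58 and 0.45, the procollagen N-propeptidase gene Adamts2 by 0.88, and the lysyl oxidase family members Loxl1 and Loxl3 by 0.68 and 0.97. Adamts2 was at 201.6, 173.5 and 185.9 CPM in the newborn libraries and at 331.7, 318.6 and 382.3 CPM in the older ones (adjusted p = 4.45e-06), with no overlap. Members of the same families fell: the prolyl 3-hydroxylase gene P3h2 by 1.81 (adjusted p = 4.34e-07), the prolyl 4-hydroxylase subunit gene P4ha3 by 0.76 and Adamts14, a relative of Adamts2, by 0.93. P4ha1, a related subunit, rose by 0.4. Matrix proteases and their inhibitors were mixed, with 5 of 39 higher and 9 lower, against 11.4% and 12.4% of all genes tested. The urokinase gene Plau fell by 2.38 (adjusted p = 2.21e-05) and the macrophage elastase gene Mmp12 by 1.88, while cathepsin K (Ctsk) rose by 0.48. Macrophage markers fell as well, and their part in the Plau and Mmp12 values was not tested.

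Elastic fibre and glycoprotein genes split by member. Of 16 elastic fibre genes 6 rose and 2 fell (median 0.24), and the fibrillin pair moved in opposite directions. Fbn1, the main microfibril protein, was at 1933, 2077 and 2084 CPM in the newborn libraries and at 4595, 3639 and 3885 CPM in the older ones (log2 change 0.99, SE 0.15, adjusted p = 4.73e-05). Fbn2, the fibrillin best known from developing tissue, was at 20.5, 23.9 and 26.4 CPM and then at 6.63, 5.4 and 7.4 CPM (-1.87, SE 0.32, adjusted p = 0.000252). In both genes the ages stood apart, in opposite order. The fibulin gene Fbln2 rose by 1.83 and the latent TGF-beta binding protein gene Ltbp2 by 1.08, while Ltbp4 fell by 1.01, a call lost without 10-13 weeks library 2 (adjusted p = 0.067). Elastin itself (Eln) was at 314.5, 259.7 and 379.2 CPM and then at 600.8, 165.8 and 526 CPM. Its libraries overlapped and the adjusted p was 0.585.

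Of 31 matrix glycoproteins 11 rose and 4 fell (median 0.25). Sparc, a collagen-binding protein of remodelling tissue, rose by 0.47 (adjusted p = 0.000224). Smoc2, of the same family, rose by 2.51 from 4.1 to 5.28 CPM up to 22.1 to 30.7 CPM, and the matrilin gene Matn4 rose by 2.43. Osteopontin (Spp1) fell by 2.37, from 175.4 to 230.8 CPM down to 33.4 to 44.8 CPM (adjusted p = 7.44e-05). The macrophage marker sum fell as well, and its part in the Spp1 value was not tested. Tenascin C (Tnc), an adhesion-modulating protein of embryonic and injured tissue, was at 3018, 4511 and 4144 CPM and then at 1229, 2851 and 1993 CPM. The ages were close to one another, with a log2 change of -0.94 and an adjusted p of 0.0278. This call was lost without 0-3 days library 2 (adjusted p = 0.101), 0-3 days library 3 (0.0757), 10-13 weeks library 1 (0.139) or 10-13 weeks library 3 (0.0601), and in a fit of the 6 libraries alone (0.084). Periostin (Postn), a fibroblast matricellular protein, ran from 2432 to 2890 CPM and from 2610 to 3719 CPM, which overlap (adjusted p = 0.41).

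**Figure D2:**
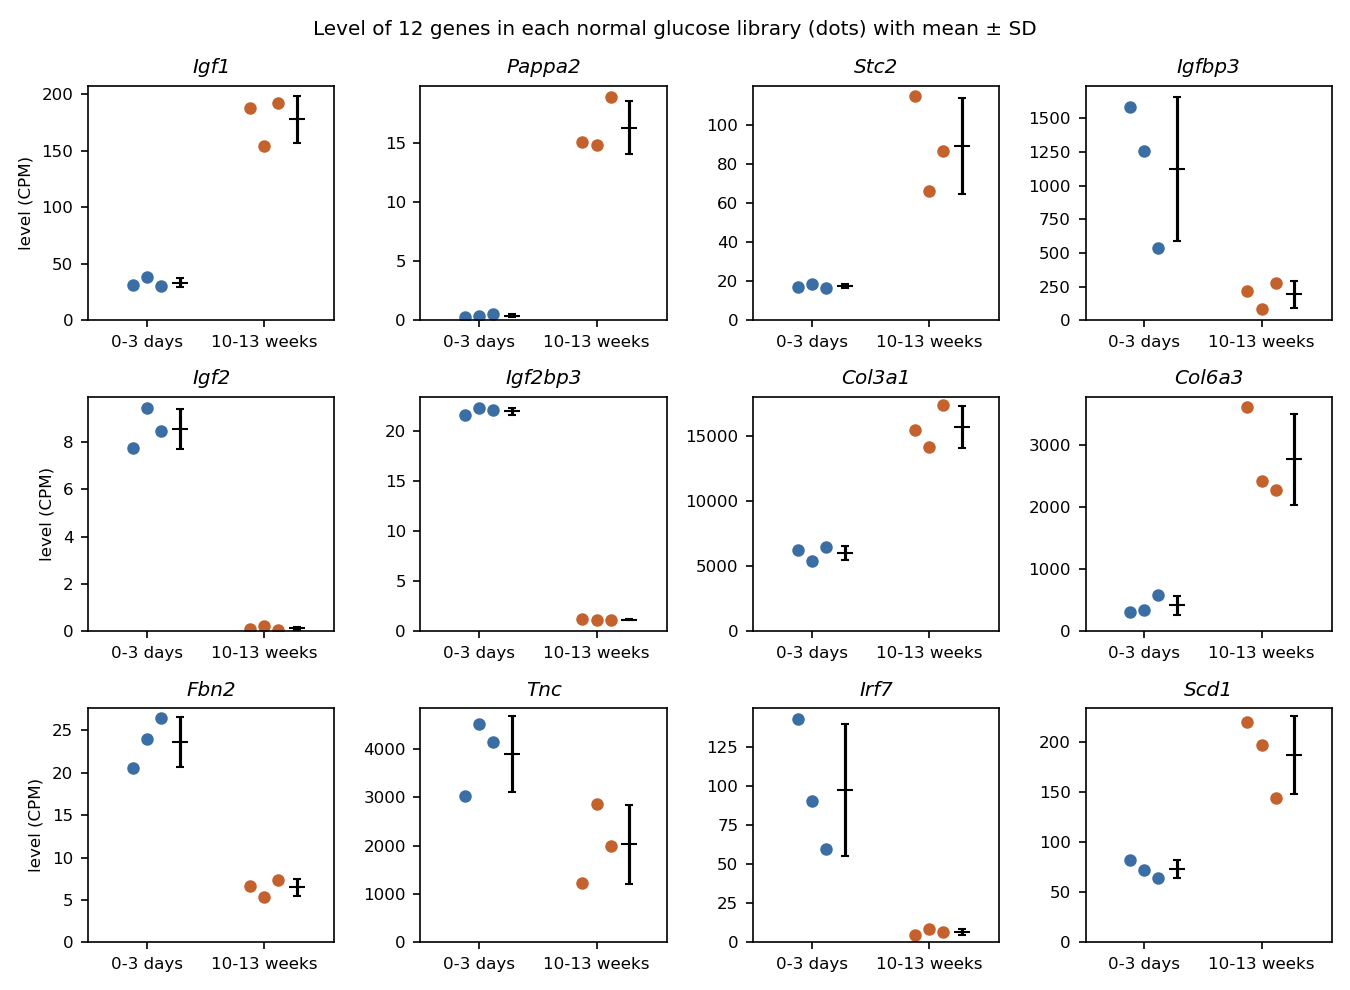
Level of 12 genes in each normal glucose library, in CPM on linear axes from 0. Dots are libraries 1, 2 and 3 of an age, and the black mark and bar are their mean and SD (n = 3). Igf1, Pappa2, Stc2, Col3a1, Col6a3 and Scd1 lie higher at 10-13 weeks in every library, and Igfbp3, Igf2, Igf2bp3, Fbn2, Tnc and Irf7 lie lower in every library.

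Proteoglycans and basement membrane genes had no common direction. Of 25 proteoglycan genes 5 rose and 6 fell. Aggrecan (Acan), the large proteoglycan of cartilage and developing valves, was at 4.26, 5.18 and 7.58 CPM in the newborn libraries and at 0.0518, 0.428 and 0 CPM in the older ones (-5.11, SE 0.86, adjusted p = 0.000206). Each older library was near the detection limit. Without 10-13 weeks library 2 the value was -7.46. The low level did not hold at the oldest age: Acan averaged 0.449 ± 0.557 CPM (SD, n = 3) at 3-4 weeks and 34.8 ± 9.92 CPM at 20 months. Prelp, a leucine-rich proteoglycan that anchors collagen to basement membranes, rose by 0.93, and lubricin (Prg4) fell by 3.2. Of 20 basement membrane genes 7 rose and 5 fell. The type IV collagen chain genes Col4a1, Col4a2 and Col4a5 rose by 0.55, 0.41 and 0.96. The laminin-332 chain gene Lamb3, typical of epithelial basement membrane, fell by 3.79, and Lama4, a laminin chain of vessels and muscle, rose by 0.82. Among 20 integrin genes 3 rose and 7 fell (median -0.42), of which the laminin receptor chain genes Itga7 and Itga6 fell by 3.07 and 2.01. The fibronectin receptor chain gene Itga5 rose by 0.45, a call lost without 10-13 weeks library 2 (adjusted p = 0.0614).

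In the insulin-like growth factor (IGF) axis Igf1 rose and Igf2 fell. Of 24 tested genes of the axis 7 rose and 8 fell. Igf1 (chr7:28412198-28486609), the growth hormone-dependent ligand, was at 31.2, 38.2 and 30.7 CPM in the newborn libraries and at 188.2, 154.2 and 191.9 CPM in the older ones. The 2 ages were widely separated, with a log2 change of 2.42 (SE 0.28, adjusted p = 3.85e-06). Igf2 (chr1:215828102-215846911), the fetal ligand made from an imprinted locus, was at 7.76, 9.44 and 8.45 CPM and then at 0.104, 0.214 and 0.0521 CPM. It was almost lost in all 3 older libraries, a log2 change of -6.06 (SE 0.72, adjusted p = 3.95e-06) and of -6.67 without 10-13 weeks library 2. At 3-4 weeks Igf1 averaged 107.9 ± 25 CPM (SD, n = 3) and Igf2 averaged 0.282 ± 0.294 CPM, and at 20 months the averages were 85.5 ± 10 CPM and 0.668 ± 0.494 CPM.

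Proteins that release or hold back IGFs moved too. Pappa2 (chr13:76389150-76660245), which encodes a protease that cleaves IGF-binding proteins, was at 0.311, 0.387 and 0.531 CPM in the newborn libraries and at 15.1, 14.9 and 18.9 CPM in the older ones. The older libraries were all far above the younger ones, a log2 change of 5.3 (SE 0.3, adjusted p = 1.09e-10). Its relative Pappa rose by 2.54 (adjusted p = 1.4e-05), and Stc2, whose product inhibits both proteases, rose by 2.35 (adjusted p = 3.63e-05). Stc2 was at 17.2, 18.5 and 16.7 CPM and then at 114.9, 66.2 and 86.6 CPM. Its mean was 37.8 ± 6.5 CPM (SD, n = 3) at 3-4 weeks and 14.1 ± 6.61 CPM at 20 months, so the 10-13 weeks group held the highest mean of the 4 ages.

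Binding proteins went both ways. Igfbp3, a main carrier of IGFs, was at 1583, 1259 and 535.2 CPM in the newborn libraries and at 221.7, 83.8 and 277.1 CPM in the older ones (-2.54, SE 0.55, adjusted p = 0.00227). The spread within each age was wide, but the lowest newborn library was above the highest older one. In a fit of the 6 libraries alone the adjusted p was 0.0511. Igfbp6, which prefers IGF-II, rose by 1.95 (adjusted p = 9.47e-07). Igfbp5 rose by 2.4 but varied from 60.2 to 245.7 CPM among the older libraries, and the value was 1.67 without 10-13 weeks library 2. The receptor genes did not pass the test: Igf1r had a log2 value of -0.27 (adjusted p = 0.338) and the growth hormone receptor gene Ghr 0.09 (adjusted p = 0.77). Igfbp5 and Igf1r were picked after their values were seen.

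Many fetal and imprinted growth genes fell. Of 29 tested 14 fell, against 12.4% of all genes tested, and 0 rose, with a median log2 change of -0.69. The ages did not overlap for 16 of the 29, against 43.3% of all genes tested. The IGF2 mRNA-binding proteins stabilise messages of fetal tissue. Igf2bp3 was at 21.6, 22.3 and 22 CPM in the newborn libraries and at 1.19, 1.18 and 1.15 CPM in the older ones, a log2 change of -4.22 (SE 0.23, adjusted p = 3.83e-11) with almost no spread within either age. Igf2bp1 was at 7.01, 9.05 and 8.69 CPM and had no count in the 3 older libraries. Set against a floor of 3 counts over the older group, it was at least 157-fold lower. Igf2bp2 fell by 1.98 and the chromatin protein gene Hmga2 by 2.48. Plag1, a zinc finger factor that drives Igf2 in other systems, fell by 3.79 (adjusted p = 1.5e-07), from 2.7 to 2.76 CPM down to 0.104 to 0.259 CPM. Imprinted genes also fell, among them the cell cycle inhibitor gene Cdkn1c by 1.95, Mest by 2.2 (-2.84 without 10-13 weeks library 2) and Plagl1 by 1.64, all 3 picked after their values were seen. Grb10, an imprinted adaptor of the insulin receptor, was at 341 to 361.9 CPM and at 351.1 to 363.9 CPM and did not pass the test (adjusted p = 0.866). Lin28b, an RNA-binding repressor of let-7 processing, had no count in any of the 6 libraries.

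Of 21 hormone receptor and target genes 3 rose and 1 fell, near the 11.4% higher and 12.4% lower of all genes. Thrb, a thyroid hormone receptor gene, rose by 1.93 (adjusted p = 7.27e-07), from 5.7 to 6.92 CPM up to 21 to 28.4 CPM. Cish, a feedback inhibitor of growth hormone and cytokine receptors, fell by 1.68 (adjusted p = 2.31e-06). Among 21 genes of retinoid metabolism 4 rose, including Aldh1a2, which makes retinoic acid, by 1.25, and the receptor gene Rarg by 0.55.

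Genes of the interferon response were lower at 10-13 weeks. Interferons bind receptors that activate STAT and IRF transcription factors, and these bind interferon-stimulated response elements in the promoters of antiviral genes. Of 46 genes tested 33 fell, against 12.4% of all genes tested, and 0 rose, with a median log2 change of -0.85. The ages did not overlap for 36 of the 46, against 43.3% of all genes tested. Under an adjusted p of 0.01 the count of fallen genes was 21. The promoters of 4 of the fallen genes that hold the core of that element are shown from RefSeq, 150 bases up to the last base before the start on the GRCr8 build, picked after their values were seen. Capitals mark GAAA, any 2 bases and GAAA again, or the reverse complement with TTTC in the place of GAAA.
Irf7 promoter (chr1:205800024-205800173, minus strand): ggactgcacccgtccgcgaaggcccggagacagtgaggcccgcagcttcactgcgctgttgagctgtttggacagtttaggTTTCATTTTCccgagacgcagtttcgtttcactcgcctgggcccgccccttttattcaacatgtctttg
Ifit3 promoter (chr1:241527176-241527325, plus strand): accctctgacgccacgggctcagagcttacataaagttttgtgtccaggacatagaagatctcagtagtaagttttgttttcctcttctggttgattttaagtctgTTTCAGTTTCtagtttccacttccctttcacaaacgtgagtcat
Oas1a promoter (chr12:41330316-41330465, plus strand): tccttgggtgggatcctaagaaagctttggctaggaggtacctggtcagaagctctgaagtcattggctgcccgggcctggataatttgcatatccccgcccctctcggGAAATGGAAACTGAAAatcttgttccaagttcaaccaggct
Bst2 promoter (chr16:18254968-18255117, minus strand): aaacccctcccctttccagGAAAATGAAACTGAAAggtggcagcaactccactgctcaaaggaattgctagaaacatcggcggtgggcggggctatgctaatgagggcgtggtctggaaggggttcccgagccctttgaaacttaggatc
In Oas1a and Bst2 the capitals hold 2 overlapping matches. The core was searched on both strands in windows from 250 bases before to 50 bases after the start. It was present in 18 of the 26 fallen interferon genes with a window (69.2%) and in 4.12% of all 27457 genes with one. A match is a description of the letters, not a measured binding site. List members without a call were not counted apart, here or for the promoters below, so a link to the change was not tested.

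Irf7, the factor that amplifies the interferon response, was at 142.7, 90.3 and 59.4 CPM in the newborn libraries and at 4.56, 8.72 and 6.88 CPM in the older ones. The newborn libraries differed among themselves but all stood far above the older ones, a log2 change of -3.86 (SE 0.68, adjusted p = 0.000346). Oas1a, a sensor of double-stranded RNA, was at 14.6, 10.6 and 9.8 CPM and then at 0.259, 1.12 and 1.35 CPM, a log2 change of -3.67. Bst2, which tethers budding virus particles to the cell, was at 119.1, 92.7 and 74.9 CPM and then at 16.3, 16 and 37.2 CPM (-2.04, adjusted p = 0.0155). Both genes had separate ranges at the 2 ages, but the Bst2 call was lost without 10-13 weeks library 1 or 2 (adjusted p = 0.0654 and 0.0657). Ifit3, an antiviral scaffold protein, fell by 2.33 (adjusted p = 0.0111, and 0.0523 without 10-13 weeks library 1) and the ubiquitin-like modifier gene Isg15 by 2.77. The factors that relay the signal fell less: Irf9 by 0.73 (adjusted p = 2.99e-05) and Irf1 by 0.43. Isg15 and Irf1 were picked after their values were seen. The macrophage marker sum fell alongside, and its part in the interferon genes was not tested.

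Of 39 antigen presentation genes tested 18 fell and 4 rose, and class I genes were in both sets. The lower count was 10 without 0-3 days library 1 and 11 without 10-13 weeks library 2. The element above was present in 7 of the 16 fallen genes with a window (43.8%) and in 0 of the 4 that rose, too few to compare. Class I molecules show peptides to T cells, and in the rat they are encoded in the RT1 complex on chromosome 20. RT1-A2 (chr20:5374985-5378539) was at 184.2, 150.3 and 119.3 CPM in the newborn libraries and at 54.8, 32.6 and 49.4 CPM in the older ones (-1.73, adjusted p = 0.000157). RT1-A1 was at 9.58, 8.76 and 5.94 CPM and then at 23.5, 36.7 and 29.9 CPM (1.89, adjusted p = 0.000319). The 2 genes thus moved in opposite directions, each without overlap. RT1-CE16 was at 4.26, 4.55 and 3.48 CPM and then at 38.6, 31 and 58.4 CPM, and RT1-A3 was at 0.133, 0.194 and 0.0966 CPM and then at 5.34, 9.26 and 7.87 CPM. The annotated span of RT1-A1 contains RT1-A2 on the same strand, with 3555 shared bases, and RT1-CE16 overlaps RT1-A3 by 2399 bases. Class I genes are also close copies of one another, so how reads were split among them is uncertain. Their levels did not follow the order of ages: RT1-CE16 averaged 0.0846 ± 0.0788 CPM (SD, n = 3) at 3-4 weeks and 67.1 ± 26.2 CPM at 20 months, and RT1-A1 averaged 2.83 ± 1.37 CPM and 3.77 ± 1.83 CPM. Whether the rats of each age shared a strain is not given, so RT1 haplotype and age cannot be told apart.

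Among cytokines, chemokines and complement components there were decreases and no increase. Of 50 cytokine and chemokine genes 19 fell and 0 rose (median -0.65), or 12 without 0-3 days library 2 and 12 without 10-13 weeks library 2. Lcn2, a secreted iron-scavenging protein of inflamed tissue, was at 72.4, 101.3 and 41.8 CPM in the newborn libraries and at 0.673, 1.23 and 2.03 CPM in the older ones (-5.77, SE 0.73, adjusted p = 1.06e-05). Its older libraries were near 1 CPM. Il1rn, the interleukin-1 receptor antagonist gene, fell by 2.85, Il18 by 3.52 and the chemokine gene Ccl3 by 2.61. Of 27 complement genes 13 fell and 0 rose (median -0.89). Clusterin (Clu), an extracellular chaperone that restrains complement, was at 298.7, 292.7 and 207.5 CPM and then at 14.4, 12.5 and 14.9 CPM (-4.25, SE 0.47, adjusted p = 2.25e-06). C1qa, a chain of the first complement component and a macrophage product, fell by 2.71, and the receptor gene C5ar1 by 3.3. Of the 23 macrophage and leukocyte markers none was at 0 at either age. Cd68, a lysosomal protein of macrophages, was at 61.8, 63.2 and 47.8 CPM and then at 5.49, 6.9 and 6.88 CPM, and the receptor gene Csf1r fell by 2.78. Their part in the fall of cytokine and complement genes was not tested. Cd68 and Csf1r were picked after their values were seen.

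Many lipid synthesis genes rose as well. The pathway runs from acetyl-CoA through mevalonate to sterols, with a branch to fatty acids, and its genes are driven together by SREBP factors. Among sterol and fatty acid enzymes and their regulators 26 of 39 tested genes rose and 1 fell, with a median log2 change of 0.55. Of all genes tested 11.4% rose. The ages did not overlap for 33 of the 39, against 43.3% of all genes tested. The higher count was 17 without 0-3 days library 2, 14 without 0-3 days library 3, 17 without 10-13 weeks library 2, 17 with plain library totals and 14 under an adjusted p of 0.01. CCAAT boxes bound by NF-Y accompany SREBP sites in several of these promoters. The windows of 3 mevalonate pathway genes are shown, of which Fdps was picked after its values were seen, with CCAAT or its reverse complement ATTGG in capitals.
Hmgcs1 promoter (chr2:53382154-53382303, plus strand): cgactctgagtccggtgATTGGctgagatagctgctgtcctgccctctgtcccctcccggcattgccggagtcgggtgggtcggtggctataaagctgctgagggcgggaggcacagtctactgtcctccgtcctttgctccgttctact
Mvd promoter (chr19:67414975-67415124, minus strand): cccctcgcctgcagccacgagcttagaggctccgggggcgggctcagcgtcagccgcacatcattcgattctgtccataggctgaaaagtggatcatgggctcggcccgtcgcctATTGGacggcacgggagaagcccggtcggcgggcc
Fdps promoter (chr2:176804817-176804966, minus strand): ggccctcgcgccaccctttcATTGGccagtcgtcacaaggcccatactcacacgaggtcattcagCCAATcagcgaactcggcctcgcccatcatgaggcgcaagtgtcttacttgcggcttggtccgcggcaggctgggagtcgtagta
The CCAAT letters were present in 16 of the 20 risen genes with a window (80%), in 1 of the 7 risen collagens with a window (14.3%) and in 39.6% of all genes with one.

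Scd1, which desaturates stearate to oleate, was at 82.7, 72.8 and 64.5 CPM in the newborn libraries and at 220, 197.2 and 144.6 CPM in the older ones (1.35, SE 0.26, adjusted p = 0.000901). Its relative Scd2 was at 793.8, 681.8 and 532.1 CPM and then at 1686, 1453 and 1166 CPM (1.1, adjusted p = 0.00404). Both desaturases were higher in every older library. Mvd, the last enzyme before isopentenyl diphosphate, rose by 0.9 (adjusted p = 0.00375), the sterol dehydrogenase gene Nsdhl by 0.8 and the regulator gene Srebf1 by 0.79. Hmgcs1, at the entry to the mevalonate route, was at 300.4, 257.3 and 216.8 CPM and then at 378.3, 387.2 and 401.5 CPM. The ages were apart, but the adjusted p of 0.0315 for its log2 change of 0.59 rose to 0.0811 without 0-3 days library 2, 0.134 without 0-3 days library 3, 0.0674 without 10-13 weeks library 2, 0.0707 without 10-13 weeks library 3 and 0.0701 with plain library totals. Fdps, which makes farnesyl diphosphate, rose by 0.52 (adjusted p = 0.00949, and 0.0507 without 0-3 days library 2). The single member that fell was Acacb, the acetyl-CoA carboxylase gene of oxidative tissue, by 1.98 (adjusted p = 0.00035). At 20 months Scd1 averaged 60.6 ± 16.6 CPM (SD, n = 3), near the newborn level.

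**Figure D3:**
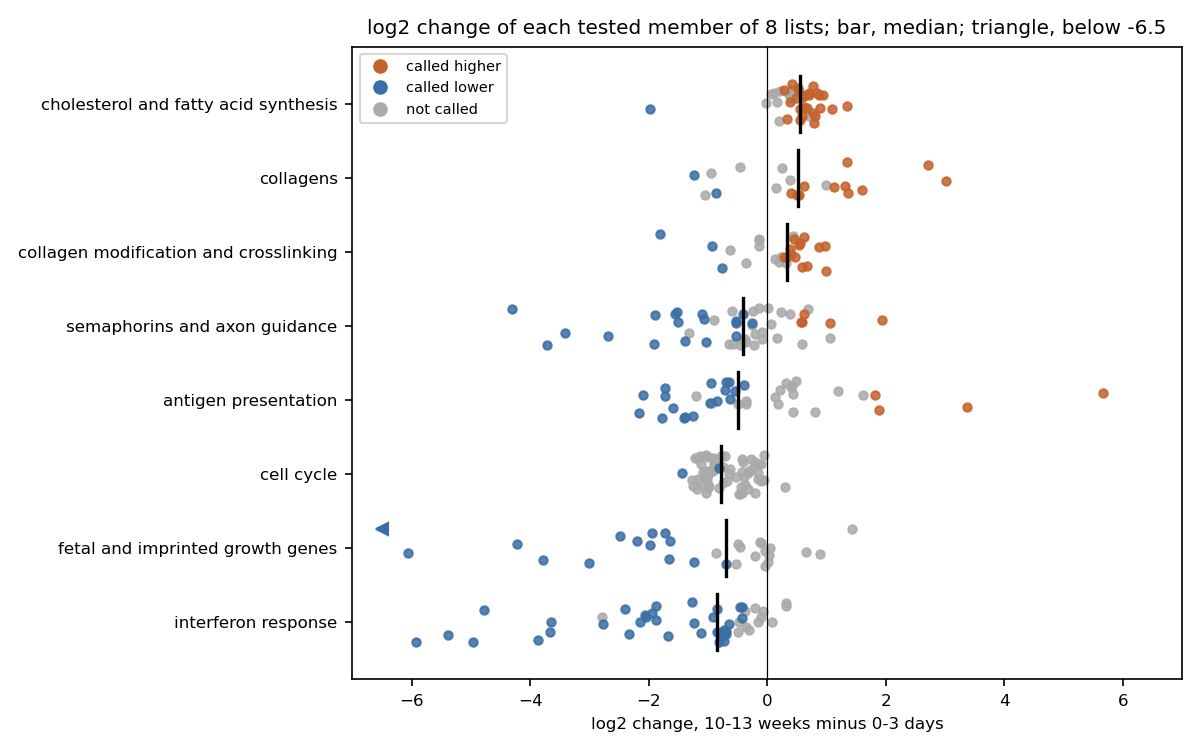
Log2 change from 0-3 days to 10-13 weeks of each tested member of 8 gene lists, in normal glucose. Each dot is a gene, coloured by its call at adjusted p under 0.05, black bars are list medians, and the single triangle is Igf2bp1, which had no count at 10-13 weeks and is drawn at the limit of the axis. The interferon median lies at -0.85 with 33 fallen members, the synthesis median at 0.55 with 26 risen members, and 64 of the 65 cell cycle dots lie left of 0 with 2 called.

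Among genes of oxidative metabolism the nuclear respiratory chain had few calls against the 23.7% of all genes tested. Of its 74 genes 1 rose and 4 fell, although 24 fell with plain library totals and 8 fell without 10-13 weeks library 3. Cox6a2, the muscle form of a cytochrome oxidase subunit, fell by 5.47 (SE 0.29, adjusted p = 3.83e-11). Of 11 mitochondrially encoded genes 3 rose and 2 fell. Of 32 fatty acid oxidation genes 4 rose and 7 fell. The fatty acid transporter gene Cd36, which macrophages and fat cells also express, fell by 3.08 (adjusted p = 4.28e-07), and the muscle carnitine palmitoyltransferase gene Cpt1b fell by 0.97. Of 33 glycolysis genes 4 rose and 3 fell, with the neuronal enolase gene Eno2 up by 1.15 (adjusted p = 7.61e-06) and the phosphofructokinase gene Pfkp up by 0.63. The insulin-responsive glucose transporter gene Slc2a4 fell by 4.55 from 2.85 to 3.19 CPM, with 1 older library at 0, and the value was -6.5 without 10-13 weeks library 1. Cox6a2 is also on the cardiomyocyte marker list. The sum of those markers fell as well, and its part in the Cox6a2, Cpt1b and Slc2a4 values was not tested. Among 50 oxidative stress genes 7 rose and 5 fell. The glycolysis and oxidative stress counts lay near the 11.4% higher and 12.4% lower of all genes tested. The secreted glutathione peroxidase gene Gpx3 rose by 2.11 (adjusted p = 2.28e-06), from 163.8 to 214.8 CPM up to 634.1 to 1029 CPM.

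Cell cycle genes were lower at 10-13 weeks in level, yet few passed the test. Of 65 tested 64 had a negative log2 value, with a median of -0.78. The ages did not overlap for 47 of the 65, against 43.3% of all genes tested. Only 2 fell by the test and 0 rose. Mki67, the proliferation antigen, was at 241.6, 318.9 and 292.1 CPM in the newborn libraries and at 157.7, 172.4 and 129.7 CPM in the older ones. The ranges were separate, and its log2 value of -0.89 had an SE of 0.53 and an adjusted p of 0.238. The 2 that fell were Hmgb2, a chromatin protein (-1.44, adjusted p = 0.0265), and E2f2, a factor of S-phase entry (-0.81, adjusted p = 0.0425). No member was called when any one of 5 of the 6 libraries was left out. The count depended on which libraries set the spread: 44 members fell in a fit of the 6 libraries alone, where Mki67 had an adjusted p of 0.000691, and 36 fell in a fit without the 3-4 weeks libraries. At 3-4 weeks Mki67 averaged 174 ± 121.6 CPM (SD, n = 3). Of 29 senescence and p53 target genes 4 rose and 1 fell, and Cdkn2a, which encodes the p16 and p19 inhibitors, ran from 4.78 to 5.9 CPM and from 5.52 to 7.93 CPM (adjusted p = 0.323). The p53 target Perp fell by 5 (adjusted p = 1.08e-06).

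Cardiomyocyte transcripts were present at 0-3 days and far lower at 10-13 weeks. Their summed level was 3700, 3681 and 3441 CPM at 0-3 days and 676.7, 729 and 665.5 CPM at 10-13 weeks. Most of the sum at 10-13 weeks came from Atp2a2 and Tnnt2, a calcium pump and a troponin subunit. Ckm, Myh6, Myh7, Myl2, Myl7, Nppa and Sln had no count in the older libraries. Actc1, the cardiac actin gene, was at 536, 550.9 and 483.4 CPM and then at 0, 0 and 0.0521 CPM. Des, the intermediate filament gene of muscle, was at 93.1, 96.3 and 66.3 CPM and then at 2.85, 2.03 and 2.14 CPM (-5.18, SE 0.32, adjusted p = 8.94e-10). Pln and Actn2, of the calcium store and the Z-disc, fell by 7.81 (-8.45 without 10-13 weeks library 2) and 7.04 and were among the largest decreases. MEF2 factors drive many muscle genes, and promoters of 3 of the fallen genes that hold CTA, any 4 bases and TAG are shown with that run in capitals. The pattern reads alike on both strands.
Des promoter (chr9:84299476-84299625, plus strand): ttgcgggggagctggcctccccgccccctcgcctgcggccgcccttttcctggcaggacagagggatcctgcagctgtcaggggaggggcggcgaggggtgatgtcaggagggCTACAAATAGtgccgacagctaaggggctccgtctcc
Mybpc3 promoter (chr3:97550911-97551060, plus strand): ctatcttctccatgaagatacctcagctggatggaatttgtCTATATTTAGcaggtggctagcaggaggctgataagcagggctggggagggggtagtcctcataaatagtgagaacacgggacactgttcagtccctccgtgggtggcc
Cox6a2 promoter (chr1:192219717-192219866, minus strand): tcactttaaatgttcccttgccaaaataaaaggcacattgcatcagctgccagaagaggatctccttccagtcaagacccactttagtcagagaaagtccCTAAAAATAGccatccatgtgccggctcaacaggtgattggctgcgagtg
It was present in 5 of the 23 fallen cardiomyocyte markers with a window (21.7%) and in 4.14% of all genes with one. Mybpc3, a thick filament protein, was at 47.2, 47.5 and 55.2 CPM and then below 1 CPM, at 0.0518, 0.321 and 0.156 CPM. Atp2a2, Tnnt2, Mybpc3 and the markers without a count were picked after their values were seen.

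Contractile genes of myofibroblasts did not rise with the collagens. Of 29 tested 1 rose and 8 fell (median -0.11), or 14 fell with plain library totals. Acta2, the smooth muscle actin gene that marks activated fibroblasts, was at 3354, 3296 and 3968 CPM in the newborn libraries and at 2934, 3484 and 3008 CPM in the older ones. These ranges overlap, and its log2 value was -0.17 (adjusted p = 0.419). Actg2, the enteric smooth muscle actin gene, fell by 2.37 and the smooth muscle myosin gene Myh11 by 1.74 (adjusted p = 1.34e-05). The skeletal actin gene Acta1 fell by 4.02 and the actin-bundling gene Synpo2 by 3.4, both also found in heart muscle, and the sum of cardiomyocyte markers fell with them, whose part was not tested. Csrp1, a LIM protein of smooth muscle, rose by 0.39.

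Of 49 cardiac transcription factor genes tested 6 rose and 9 fell, against 11.4% higher and 12.4% lower of all genes tested. In this list 2 factors of heart muscle were nearly absent at 10-13 weeks. Nkx2-5 and Irx4, which specify heart muscle and ventricle, were at 3.1 to 4.04 CPM and 2.85 to 4.16 CPM at 0-3 days. At 10-13 weeks Nkx2-5 had a count in 1 library and Irx4 in none. Sox11, a factor of embryonic cells, fell by 2.11 (adjusted p = 1.87e-06) and Mef2c by 1.33. Gata4, which fibroblasts of the heart also express, was at 169.1, 160 and 163.4 CPM and then at 149.7, 148.6 and 135.1 CPM, a log2 value of -0.18 that did not pass (adjusted p = 0.188). Tcf21, a factor of epicardium-derived fibroblasts, overlapped between the ages (adjusted p = 0.77). Heyl, a Notch target, rose by 1.73 (adjusted p = 0.00119), and Snai1, of mesenchymal cells, by 0.78. Of 6 Hox genes 2 rose.

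Guidance cues fell more often than they rose. Of 47 semaphorin, ephrin, netrin and slit pathway genes 18 fell and 5 rose (median -0.41). Slit3, a secreted guidance protein, was at 245.1, 233.8 and 228.1 CPM in the newborn libraries and at 1021, 788.8 and 898.9 CPM in the older ones (1.94, SE 0.14, adjusted p = 4.54e-09). All older libraries were above all newborn ones by a wide margin. The ephrin receptor gene Epha3 fell by 3.71 and the ligand gene Efnb3 fell by 4.31, and Plxnd1, a semaphorin receptor, fell by 1.51 (adjusted p = 2.23e-07).

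Growth factor, TGF-beta and Wnt genes were mixed. The TGF-beta and Wnt counts lay near the 11.4% higher and 12.4% lower of all genes tested. Of 54 growth factor and receptor genes 7 rose and 12 fell. Figf, which encodes the lymphatic growth factor VEGF-D, was at 112, 85.8 and 69.4 CPM and then at 433.2, 247.4 and 476.5 CPM (2.11, adjusted p = 0.000295), and Fgfr1 rose by 1.04 (adjusted p = 4.04e-08). Pdgfb and the endothelin receptor gene Ednra fell by 2.58 and 2.27. Of 55 TGF-beta and BMP genes 7 rose and 9 fell, or 5 fell without 10-13 weeks library 2. The receptor gene Tgfbr1 fell by 0.63, while the inhibitory Smad7 rose by 0.59. Of 41 Wnt genes 5 rose and 4 fell, with the ligand gene Wnt5a down by 1.47 (adjusted p = 5.59e-06), the receptor gene Fzd1 down by 0.99 and Wisp2, a matricellular Wnt target, up by 1.11. Of 23 Notch and Hedgehog genes 2 rose and 3 fell, with the ligand gene Jag2 down by 3.73 (-4.35 without 10-13 weeks library 1).

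Stress and timing genes were called at shares to be read against 23.7% of all genes tested. Of 34 immediate early genes 5 rose and 0 fell, or 1 without 10-13 weeks library 1. Fosb, an AP-1 subunit gene, was at 0.488, 0.532 and 0.579 CPM and then at 11.9, 2.52 and 2.29 CPM. Library 1 of the older group stood far above the other two, and the log2 change of 3.37 was 2.18 without it. Egr2 and Egr3 were likewise highest in that library, and neither passed without it (adjusted p = 0.402 and 0.121). The Egr2 call was also lost without 0-3 days library 1, 2 or 3 (adjusted p = 0.107, 0.0699 and 0.0902) and without the low-count filter (0.0675). Egr3 was also lost without 0-3 days library 1 (0.0519). With limma-voom the values for Egr2 and Egr3 were 0.0958 and 0.15, and in a fit of the 6 libraries alone 0.169 and 0.0538. Of 20 hypoxia genes 5 rose and 2 fell, of 34 unfolded protein and amino acid stress genes 7 rose and 1 fell, or 1 rose without 0-3 days library 2 and 1 with plain library totals, and of 17 circadian clock genes 5 rose and 0 fell. Over 20 alternative settings the count of risen genes ran from 3 to 9 for hypoxia and from 2 to 6 for the clock. Bhlhe41, a repressor of the clock, rose by 1.18 (adjusted p = 1.62e-05). Ndrg1 and the prolyl hydroxylase gene Egln3, both hypoxia-induced, fell by 2.22 and 2.36.

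**Figure D4:**
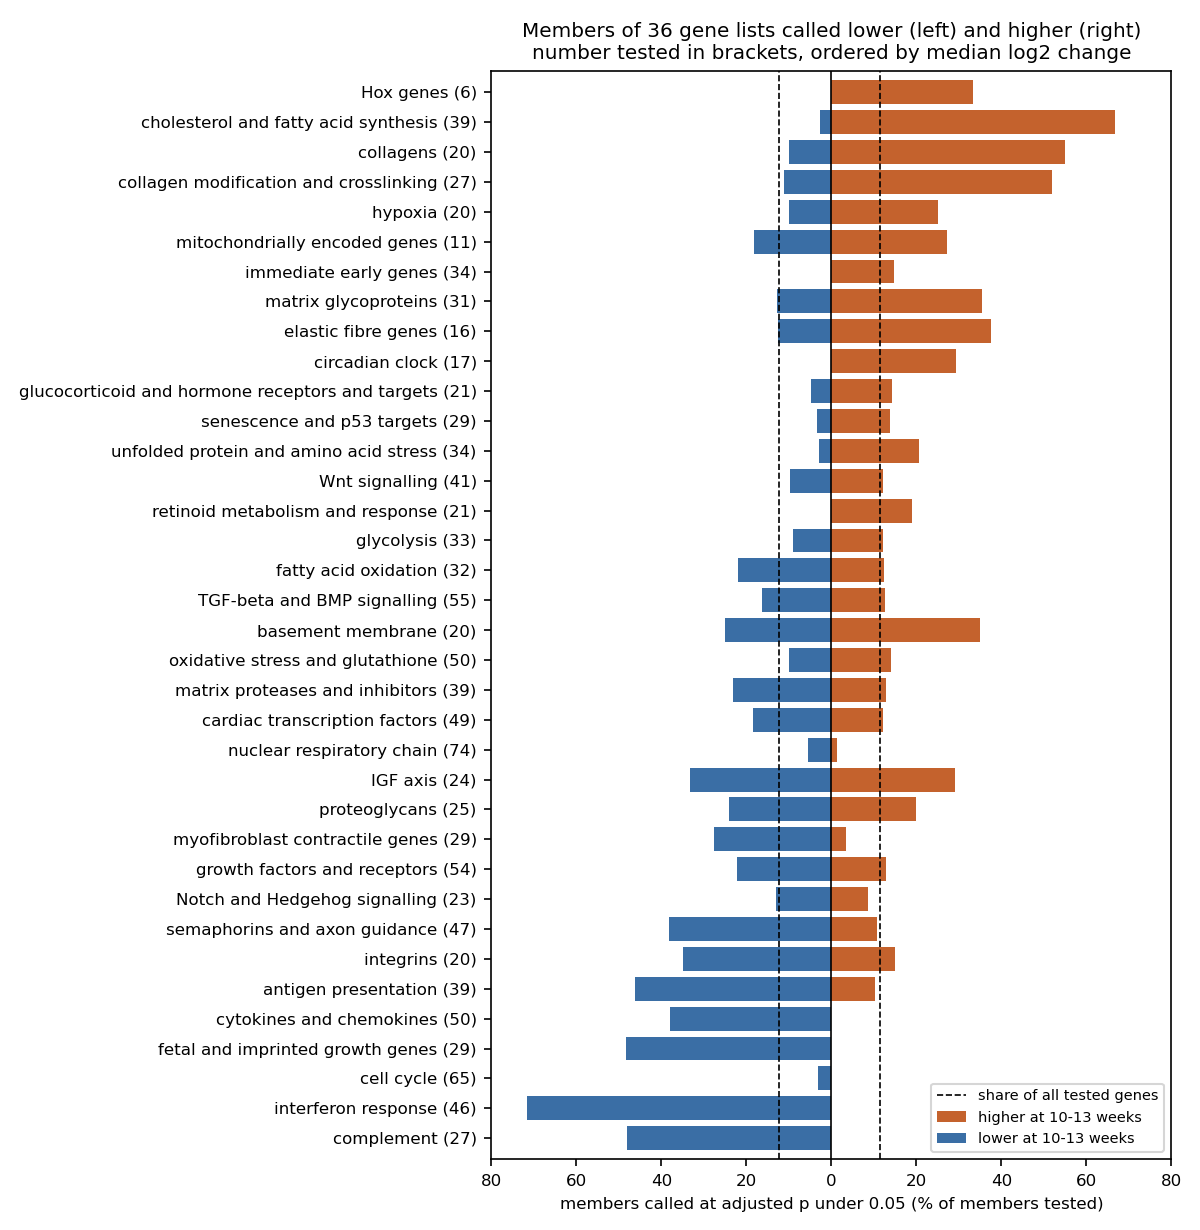
Share of the tested members of 36 gene lists that fell (blue, left) or rose (orange, right) at 10-13 weeks, in percent, with the number tested in brackets. Lists are ordered by median log2 change and dashed lines mark 12.4% lower and 11.4% higher among all genes tested. Interferon response has the longest bar to the left and none to the right, and cholesterol and fatty acid synthesis the longest bar to the right.

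Among genes with a mean log2 CPM of at least 1, the largest increases outside the lists included Kcnv2, Tmeff2, Foxa2 and Akr1c14. Kcnv2, a silent potassium channel subunit, was at 2.93, 2.18 and 2.03 CPM and then at 21.3, 27.2 and 45 CPM (3.7, SE 0.33, adjusted p = 1.49e-07). Tmeff2, a transmembrane protein with follistatin domains, rose by 3.68 from 1.31 to 2.46 CPM up to 20.4 to 30.3 CPM. Foxa2, a factor best known from endoderm, was at 0.133, 0.339 and 0.483 CPM and then at 4.04, 5.57 and 2.08 CPM (3.61, adjusted p = 0.00024), with a mean of 18.9 ± 4.15 CPM (SD, n = 3) at 20 months. All 3 were higher in every older library than in any newborn one. The largest decreases were cardiomyocyte genes, macrophage genes such as Mpeg1, Siglec1 and Pf4, and the secreted protease inhibitor gene Slpi, which was at 84.2, 142.1 and 33.9 CPM and then at 0.622, 0.482 and 0.99 CPM. Gja5, a connexin of conduction and arterial cells, fell by 5.06, from 54.3 to 131.4 CPM down to 2.57 to 3.26 CPM.

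The same pair of ages was also compared in high glucose, with 3 other libraries of each. There 3858 genes changed, 27.9% of those tested, with 1921 higher (13.9%) and 1937 lower (14.0%). Of the normal glucose calls 79.7% were called in the same direction in high glucose, and of the high glucose calls 67.7% were called in normal glucose. In the lists described, 35 interferon genes fell and 0 rose in high glucose, 13 fetal and imprinted genes fell, 11 collagens rose and 20 synthesis genes rose. Some counts were further apart: 15 immediate early genes rose in high glucose against 5 in normal glucose, 3 cytokine and chemokine genes rose against 0, and 6 Notch and Hedgehog genes fell against 3. The difference between these counts was not tested. Igf1 rose by 2.14 and Pappa2 by 4.52, and Igf2bp3 fell by 3.34. Of 243 genes picked by the naming rule all had the same sign at both glucose levels, and 219 were called in both. The rule picks mostly genes called in normal glucose, 233 of the 243, so this match is a description and not a test. No gene passed the test of a different age effect at the 2 glucose levels in the fit of all libraries (edgeR, smallest adjusted p = 1, 322 genes at an unadjusted p under 0.05). Libraries with the same number at the 2 glucose levels of an age deviated together, so the high glucose comparison is not an independent repeat. With that number as a block 62 genes differed, Wt1 and Fzd1 among those named here. Wt1, a factor of epicardium and its fibroblast progeny, was at 15.9, 15.5 and 15.3 CPM and then at 16, 13.1 and 10 CPM in normal glucose, a log2 value of -0.26 that did not pass (adjusted p = 0.491), and fell by 1.17 in high glucose (adjusted p = 0.00163).

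**Figure D5:**
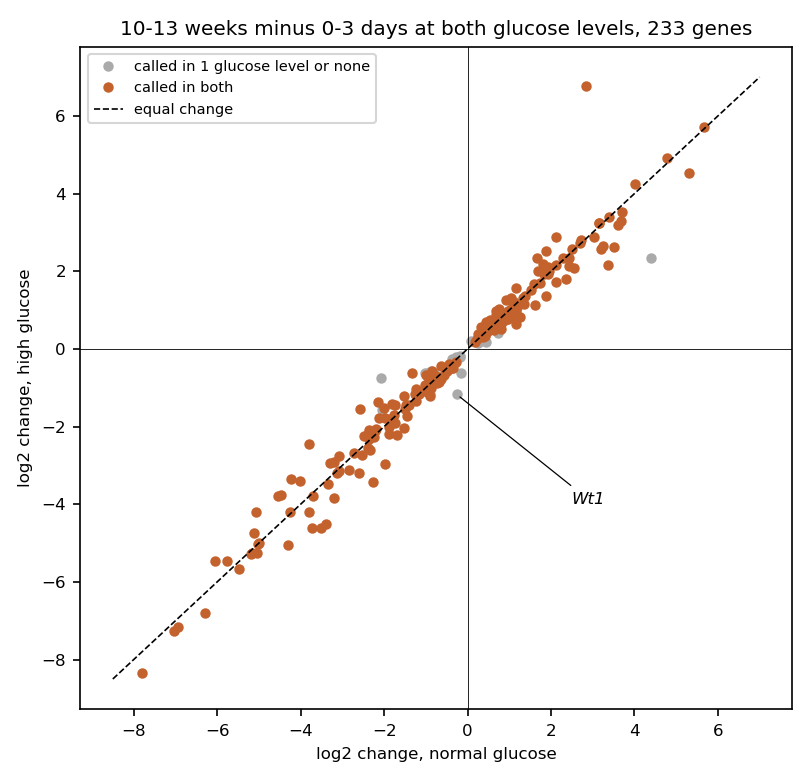
Log2 change from 0-3 days to 10-13 weeks in normal glucose (horizontal) and high glucose (vertical) for 233 of the 243 genes of the naming rule. Genes with 3 or fewer counts in an age group were left out. Orange dots were called at both glucose levels, grey dots were not, and the dashed line marks equal change. The dots follow the line, and Wt1 lies below it.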

How the data were processed

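The deposited table gives, for 30957 genes in 24 libraries, whole-number counts and FPKM values made by the authors, who per the submitters' processing notes used HISAT2 2.0.4, StringTie 1.3.0 and edgeR (version and the role of each tool not given in the sources used here) with the rat build Rnor_6.0. Per the labels' protocols total RNA was made into libraries with a universal V6 kit, and no strand setting is given. The FPKM values deposited by the authors equal count over length and library total within 1% in 13166 of 13166 genes checked, so the tests here used the counts, as deposited.

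Genes were tested with edgeR 4.0.16 in R 4.3.3: TMM scaling, filterByExpr (minimum count 10, minimum total 15), and a robust quasi-likelihood fit of all 24 libraries in 8 groups of 3, so that all groups share one estimate of spread. The 11647 genes with no count in any library and other low genes were left out of the test. The SE was taken as the log2 change over the square root of the F value. The test script was checked on simulated counts. Replicate libraries were compared by a chi-square of their counts per gene, and none was a copy of another. With 3 against 3 an exact permutation test of one gene could not go below p = 0.1.

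Genes are named by a rule: the up to 12 largest changes in each direction among called genes with a mean log2 CPM of at least 1 and no overlap, the up to 12 most abundant called genes over 2 fold, up to 4 called members per direction of each list, and 25 fixed genes. The members, the 36 gene lists and 11 marker lists, the alternatives and the fixed genes were chosen with earlier results of these data known. Alternatives covered scaling, the low-count filter, DESeq2 1.42.0, limma-voom (limma 3.58.1), the libraries in the fit, replicate blocks, leaving out each library and an adjusted p under 0.01. Same-numbered libraries of the 2 ages did not deviate together (r of -0.1 to 0.04) and were not paired. Those of the 2 glucose levels of an age did (r of 0.2 to 0.41 in 6 pairs), and that block was used only for the glucose comparison. Promoters, each 300 bases, are RefSeq's on GRCr8, for 27457 genes. Gene positions in the table are on Rnor_6.0 and none was converted. Results for 3 genes that the rule or the lists hold are not reported here.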

Additional observations from a re-analysis of the deposited data

Results flagged for a closer look

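By the interaction test with the replicate number blocked within each age (edgeR), the age effect of 62 genes differed between the glucose levels. The smallest adjusted p of that test was 3.64e-05, for Creb3l1. Only the 2 genes already named above are described here. For Wt1 the difference, high minus normal glucose, was -0.93 on the log2 scale (adjusted p = 0.0149), with a fall of 1.17 in high glucose and a value of -0.26 in normal glucose. In high glucose Wt1 was at 23.1, 18.9 and 17.5 CPM in the newborn libraries and at 11.9, 8.72 and 5.79 CPM in the older ones, and every older library was below every newborn one, which was not so in normal glucose. For Fzd1 the difference was 0.34 (adjusted p = 0.0379), with changes of -0.66 in high and -0.99 in normal glucose, and the ages did not overlap at either glucose level. Without the block neither passed (adjusted p = 1 for both).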

How the results depend on the processing

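The number of changed genes in normal glucose lay between 2398 and 3897 over the settings that kept an adjusted p under 0.05. Plain library totals gave 939 higher and 2674 lower, and an adjusted p under 0.01 gave 1981 genes, 879 higher and 1102 lower. Leaving out 1 library gave 2398 to 2840 genes, 1085 to 1482 higher and 1313 to 1454 lower, 1225 to 1305 over 2 fold, and 2934 to 3245 in high glucose, with no gene past the interaction test. With the replicate block the count was 3572 over all libraries and 3161 over the 6 compared, and the interaction with the block within age gave 62 genes. DESeq2 gave 3473 and limma-voom 3368. Of 167 named genes the direction turned for Ghr and Grb10 (-0.03 and -0.09 with plain library totals) and Tcf21 (-0.35 to 0.09 with 1 library left out, above 0 at 0.03 without 0-3 days replicate 1 and at 0.09 without 10-13 weeks replicate 2), none of them called; the cause was not tested. Genes with counts near 0 at one age have no precise fold at this depth, and a gene's call in 3 libraries of an age cannot tell animals from cultures.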
